A study of Mus musculus with 13 samples.

Results

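The miRNAs described here are the arms of the miR-221 and miR-222 hairpins in B78H1 melanoma of mice fed curcumin or normal chow. The members were chosen by name, as mmu-miR-221-3p and mmu-miR-222-3p together with the 5p arms that the arrays also carried, mmu-miR-221-5p and mmu-miR-222-5p. These are 4 of the 1079 mouse miRNAs on the array. B78H1 is an amelanotic mouse melanoma line that was cloned from B16 cells and lacks Tap-2 and MHC-I. Each flank of male C57BL/6 mice received 100000 B78H1 cells under the skin. In the curcumin diet group the chow held 4% curcumin from 14 days before the injection until the end, and the normal diet group received the standard chow. Tumor growth was followed over 28 days, and RNA of 7 curcumin diet and 6 normal diet tumors was hybridized with 1 array per tumor. The labels do not tie tumors to mice, so p-values measure the spread between these tumors.

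miR-221 and miR-222 are made from a shared transcript on the X chromosome. Each hairpin is cut into a 5p and a 3p arm, and the 3p arm is the one usually loaded into the silencing complex, which it guides to mRNAs that pair with its seed. In melanoma the pair is known for repressing the cell cycle inhibitor p27Kip1 (Cdkn1b) and the receptor c-KIT, and the transcription factor PLZF is known to repress its gene. It is also expressed in cells of the vessel wall, fibroblasts and leukocytes.

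In the RefSeq table of GRCm38.p6, Mir221 lies at chrX:19146294-19146388 and Mir222 at chrX:19146893-19146971, both on the minus strand, with 504 bases between the hairpins. Neither overlapped another gene of that table. The closest genes on either side were the pseudogene Gm5383 and the long noncoding RNA gene Gm14636. The table held a mature sequence for 3 of the 4 arms. They are shown, together with mmu-miR-1928, because the seed decides which mRNAs a miRNA pairs with. All are written 5′ to 3′, and capitals mark the seed, bases 2 to 8.
mmu-miR-221-3p: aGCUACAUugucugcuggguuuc
mmu-miR-222-3p: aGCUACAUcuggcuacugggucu
mmu-miR-1928: aGCUACAUugccagcuc
mmu-miR-221-5p: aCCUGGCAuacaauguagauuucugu
The 3p arms were equal at their first 8 bases and at 11 of all 23 positions, counted from the 5′ end without gaps. Of the 840 array miRNAs with a sequence in the table, mmu-miR-1928, encoded on chromosome 1, was the only other miRNA with the seed of the 3p arms, and none shared the seed of mmu-miR-221-5p.

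The arrays gave a background-corrected signal per probe, and the signals of the probes of a miRNA were summed. The summed signal of all miRNAs lay between 114095 and 281508 in curcumin tumors and between 150272 and 244666 in controls, with 272 to 370 and 313 to 412 miRNAs called detected by the scanner software. The array of curcumin tumor 5 was the dimmest, with the lowest number of detected miRNAs. The arrays lay on 2 slides, which held 3 curcumin and 2 control tumors and 4 of each. On both slides the controls lay in the first line of arrays and the curcumin tumors in the second, so line and diet cannot be told apart. No pair of arrays held equal values.

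Both 3p arms were higher in curcumin tumors. The signal of mmu-miR-221-3p was 8.92 at the lowest, 70.2 at the median and 128 at the highest in curcumin tumors, against 4.32, 8.53 and 28.6 in controls. It was called detected in 7 of 7 curcumin tumors and 4 of 6 controls. Before normalization the groups overlapped at a single curcumin tumor, number 5, which lay under controls 2, 5 and 6, while the other curcumin tumors lay above every control.

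The signal of mmu-miR-222-3p, the other 3p arm, was 4.10, 64.1 and 99.2 in curcumin tumors (lowest, median and highest) and -1.65, 2.53 and 13.8 in controls. A value under 0 means a signal below the background that the scanner software subtracted. mmu-miR-222-3p was called detected in 6 of 7 curcumin tumors and 2 of 6 controls, numbers 5 and 6. Curcumin tumor 5 was again the lowest of its group and lay under those 2 controls. Over both 3p arms, 19 of the 26 values were called detected.

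**Figure D1:**
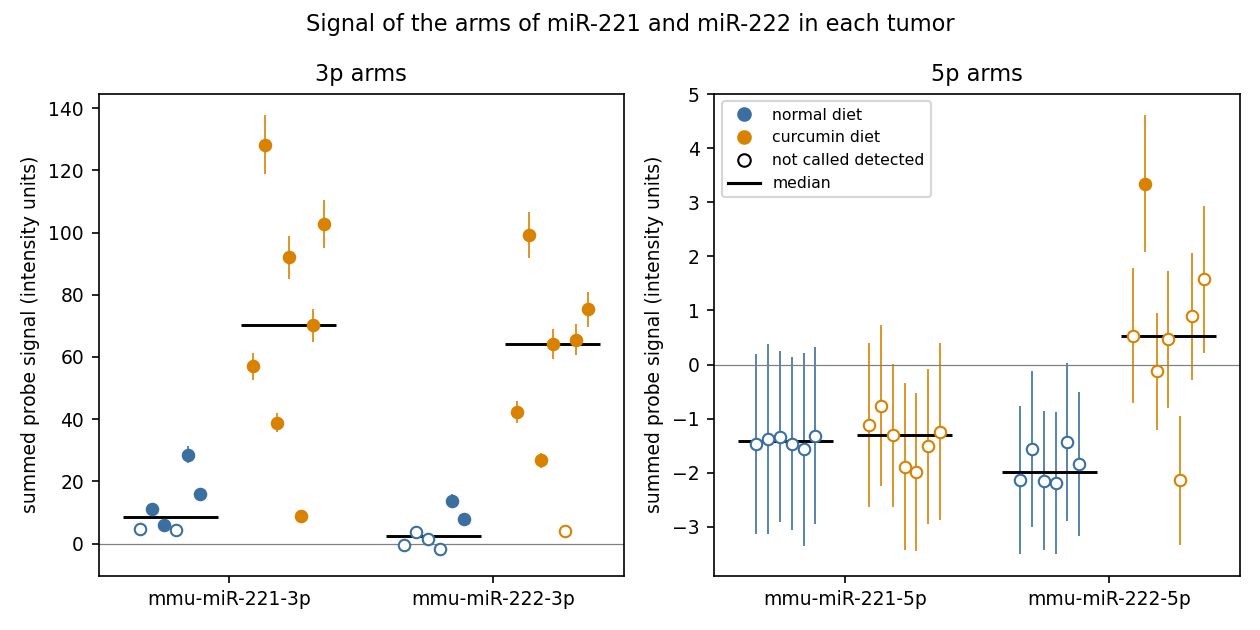
Summed probe signal (intensity units, not normalized) of each arm in each tumor, with the scanner software's error of the signal as bars, the group median as a black line and open circles for arms not called detected. The 3p arms had median signals of 70.2 and 64.1 in curcumin tumors against 8.53 and 2.53 in controls, and the 5p arms stayed between -2.19 and 3.35.

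To compare the diets, the summed signals were quantile normalized, which gives all arrays the same distribution, and put on the log2 scale. In these values the 7 curcumin tumors had a mean of 6.01 ± 0.74 (SD) for mmu-miR-221-3p, and the 6 controls one of 3.21 ± 0.68 (SD). The difference of 2.80 (SE 0.39) on the log2 scale is a 6.94-fold higher level with curcumin, at an adjusted p of 0.00179 by limma. The groups did not overlap, since curcumin tumor 5 (4.49) lay just above control 6 (4.19), and the exact two-sided permutation test over the 1716 assignments of the tumors gave p = 0.00117.

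For mmu-miR-222-3p the normalized log2 values ran from 3.44 to 6.36 in curcumin tumors (median 5.87) and from -7.03 to 3.14 in controls (median 1.20). The value of -7.03 is the floor given to signals at or below 0, which controls 1 and 4 had. The groups did not overlap, and the exact two-sided permutation test gave p = 0.000583, the smallest this design allows. The fitted difference of 6.44 (SE 1.81, limma adjusted p = 0.0358) depends on where the floor is set. It was 4.10 (adjusted p = 0.00293) with a floor of 1 and 4.28 (adjusted p = 0.00128) with a floor at the lowest detected miRNA, and 0.843 (adjusted p = 0.00410) with the normexp background correction and an offset of 50, which compresses low signals. Controls were also raised to the lowest signal called detected on their own array, mapped to the normalized scale, which concerned 3 controls. With these values mmu-miR-222-3p was 12.2-fold higher with curcumin. This is not a lower bound, since normexp gave a smaller difference and detection was not a fixed cutoff of the signal. In control 2 mmu-miR-222-3p was not called detected at 3.58, above the lowest detected signal of that array (1.98).

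Thus 2 of the 4 arms passed the threshold as higher, where 8.34% of the 1079 miRNAs did so and 15.8% differed in either direction. For 4.08% of all miRNAs every curcumin value lay above every control value, as for both 3p arms. The same order within each slide follows from this lack of overlap and is no separate check. On slide 1 the lowest curcumin value of mmu-miR-221-3p was 5.72 and the highest control value 3.11, and that of mmu-miR-222-3p was 5.05 against 1.02. On slide 2 the same values were 4.49 against 4.19 and 3.44 against 3.14.

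The call of mmu-miR-222-3p by limma was less firm than that of mmu-miR-221-3p. When each array was left out in turn, mmu-miR-221-3p passed the threshold every time (adjusted p from 8.998e-05 to 0.00731), whereas mmu-miR-222-3p missed it without any of curcumin tumors 1, 2, 3, 4, 6 and 7 or of controls 1, 2 and 4 (adjusted p up to 0.0709). In the log2 values that the authors deposited, both passed with every array left out. These values were met in full (100% within 1e-04) from a mixed signal. It was the sum over detected probes where a miRNA was called detected, and the sum over all probes elsewhere. After quantile normalization 4.39 was added before the logarithm, so that no value had to be set to a floor and the changes of low signals are understated. On that scale the difference was 2.37 (SE 0.34, adjusted p = 0.000577) for mmu-miR-221-3p and 2.98 (SE 0.39, adjusted p = 0.000285) for mmu-miR-222-3p, where 9.55% of all miRNAs were called higher. Curcumin tumor 5 then lay at 4.47 for mmu-miR-221-3p, just under control 6 at 4.50, and above every control for mmu-miR-222-3p, at 4.03 against 3.45.

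The 5p arms, which are usually degraded after the hairpin is cut, were at the limit of the arrays. mmu-miR-221-5p was called detected in 0 of 13 tumors and its summed signal was below 0 in each, so no diet difference could be measured (limma adjusted p = 1). For mmu-miR-222-5p the signal was -2.14, 0.531 and 3.35 in curcumin tumors (lowest, median and highest) and -2.19, -1.98 and -1.43 in controls. It was called detected in curcumin tumor 2 only. After normalization all controls and curcumin tumors 3 and 5 lay at the floor, and the difference missed the threshold (limma adjusted p = 0.0518, exact two-sided permutation p = 0.0210).

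In the deposited values mmu-miR-222-5p passed it. Its log2 values ran from 1.70 to 2.95 in curcumin tumors and from 1.22 to 1.51 in controls. The difference was 0.91 (SE 0.17, limma adjusted p = 0.00205), where 9.55% of all miRNAs were called higher. Before normalization the groups overlapped, since curcumin tumor 5 (-2.14) lay under controls 1, 2, 5 and 6. In the deposited values mmu-miR-221-5p differed by -0.05 (SE 0.11, limma adjusted p = 0.841). mmu-miR-1928, which shares the seed of the 3p arms but not their gene, was called detected in 0 of 13 tumors.

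The probes of each arm were also looked at one by one. Their signals make up the summed signal, so they are no separate check of the diet difference. Each 3p arm had 2 probes with 20 spots each, and mmu-miR-222-5p had 3. The median signal of the first and second probe of mmu-miR-221-3p was 27.4 and 42.8 in curcumin tumors against 3.25 and 5.28 in controls. For mmu-miR-222-3p these medians were 25.3 and 38.8 against 0.62 and 1.90. So the probes of each 3p arm moved the same way.

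Fitted over all 2754 probes after quantile normalization, both probes of mmu-miR-221-3p were called higher, with log2 differences of 2.97 (SE 0.45) and 2.73 (SE 0.41) and a limma adjusted p of 0.00366 each. Of the probes of mmu-miR-222-3p, the first was called (adjusted p = 0.0417) and the second was not (adjusted p = 0.0889), with 2 and 1 controls at the floor, although the curcumin values of each lay above all control values. The signal of mmu-miR-222-5p came from its probe 3, whose median was 1.37 in curcumin tumors and -0.525 in controls and which was called higher (adjusted p = 0.000516) with all 6 controls at the floor. The medians of its other probes were -0.399 and -0.256 in curcumin tumors, and neither was called. Altogether 4 of the 9 probes were called higher, where 5.95% of all probes were. No array had the majority of the spots of probe 3 of mmu-miR-222-5p well above background.

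**Figure D2:**
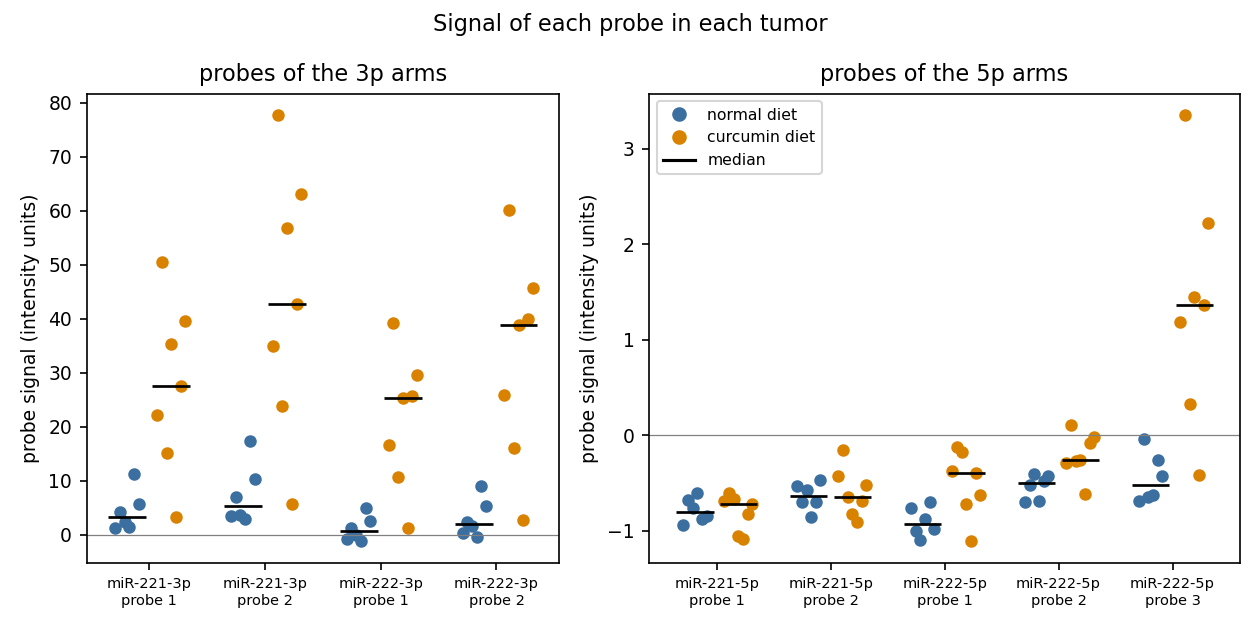
Signal (intensity units, not normalized) of each probe of the 4 arms in each tumor, with the group median as a black line. Both probes of each 3p arm lay higher in curcumin tumors (medians 27.4, 42.8, 25.3 and 38.8), and among the 5p probes probe 3 of mmu-miR-222-5p reached 3.35.

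The next comparison asked whether the members of the cluster changed by the same amount. Levels of different miRNAs cannot be compared on an array, but the ratio of mmu-miR-222-3p to mmu-miR-221-3p can be compared between the diets. In the normalized values the mean log2 ratio was -0.53 ± 0.31 (SD) over the 7 curcumin tumors. Over the 6 controls, of which 2 rest on the floor, it was -4.17 ± 4.19 (SD). The difference was 3.65 (exact two-sided permutation p = 0.00175).

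In the deposited values, which have no floor, the log2 ratio ran from -0.61 to -0.09 in curcumin tumors and from -1.51 to -0.45 in controls. Controls 1, 2, 4, 5 and 6 lay below every curcumin tumor and control 3 lay among them. In controls 2 and 3 and curcumin tumor 5, mmu-miR-221-3p was called detected and mmu-miR-222-3p was not. Their deposited ratios therefore mix a sum over detected probes with a sum over all probes. The difference was 0.62 (exact two-sided permutation p = 0.00291). Among the tumors in which both arms were called detected, 6 curcumin tumors and controls 5 and 6, it was 0.60, and no p under 0.0357 was possible with so few tumors (exact two-sided permutation p = 0.0357). Signals close to the background entered most control ratios, and with the normexp correction the difference turned to -0.0773 (exact two-sided permutation p = 0.0909). It fell short of the threshold with detected probes alone as well (1.05, exact two-sided permutation p = 0.485).

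The 3p arms followed each other from tumor to tumor within a diet. In the 7 curcumin tumors Pearson's r was 0.99 (exact permutation p = 0.000992, adjusted 0.00179) and Spearman's rho 0.89 (exact permutation p = 0.0123, adjusted 0.0123). Without tumors 5 and 3, the farthest from the median of mmu-miR-221-3p, r was 0.84 over 5 tumors (exact permutation p = 0.0583), so the relation missed the threshold without these 2 tumors. In the 6 controls r was 0.87 (exact permutation p = 0.0361, adjusted 0.0361) and rho 0.99 (exact permutation p = 0.00556, adjusted 0.00833), with 2 values of mmu-miR-222-3p at the floor. Without controls 6 and 4 r was 0.81 over 4 tumors (exact permutation p = 0.292). In the deposited values of the controls r was 0.83 (exact permutation p = 0.0417), while rho was 0.83 and missed the threshold (exact permutation p = 0.0583), both not adjusted.

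Of the 6 correlations planned, those of mmu-miR-221-3p with its 5p arm, and of the arms of miR-222 in controls, could not be computed since a 5p arm had the same floor value throughout. The adjusted values are over the remaining 3. The last of these, between the arms of miR-222 in curcumin tumors, had an r of 0.87 (exact permutation p = 0.00119, adjusted 0.00179) and a rho of 0.95 (exact permutation p = 0.00397, adjusted 0.00833), with 2 of the 5p values at the floor. With the values of the 3p arms centred on the slide and pairings permuted within slides, r was 0.99 in curcumin tumors (exact permutation p = 0.0278 over 144 pairings) and 0.85 in controls (exact permutation p = 0.0208 over 48 pairings), not adjusted.

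**Figure D3:**
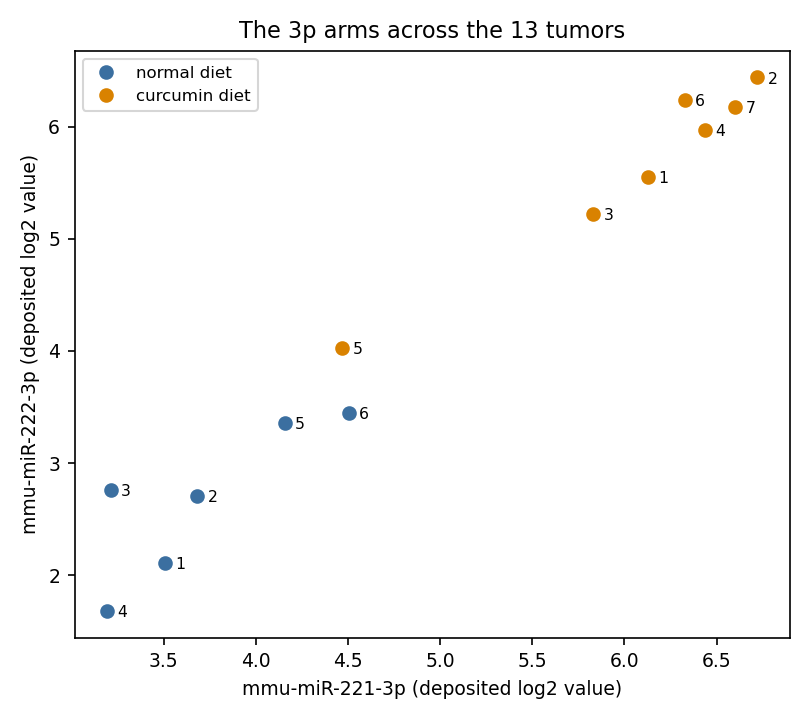
Deposited log2 value of mmu-miR-222-3p against that of mmu-miR-221-3p in each of the 13 tumors, numbered within the diet. Curcumin tumor 5 lay next to controls 5 and 6, at 4.47 and 4.03, and the other curcumin tumors lay at or above 5.83 and 5.22.

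Among 242 miRNAs detected on all arrays, those most like the 3p arms were found from the ranks of the tumors within each diet, as a description over 13 tumors that share their arrays. On this measure the likeness of the 3p arms to each other was 0.93. The nearest to both was mmu-miR-146b-5p, a miRNA induced by inflammatory signaling, at 0.93 for mmu-miR-221-3p and 0.95 for mmu-miR-222-3p. The median over the 242 miRNAs was -0.16 and -0.12.

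The next ones for mmu-miR-221-3p were mmu-miR-338-3p (0.91), mmu-miR-199a-5p of mesenchymal cells (0.87), mmu-miR-155-5p of activated leukocytes (0.85) and mmu-miR-21-5p, which is abundant in many tumors (0.83). For mmu-miR-222-3p they were mmu-miR-29a-3p, known for its collagen targets (0.86), mmu-miR-21-5p (0.84), mmu-miR-155-5p (0.82) and mmu-miR-199a-5p (0.82). The measure used no difference between the diets, and all 6 of these miRNAs were also higher in curcumin tumors, by between 1.52 (mmu-miR-29a-3p, SE 0.24, limma adjusted p = 0.00348) and 3.01 (mmu-miR-146b-5p, SE 0.51, adjusted p = 0.00374) on the log2 scale. Of the 243 miRNAs detected on all arrays, 49 were called higher.

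Some markers of other cell types also differed between the diets. All 5 of the hematopoietic list (mmu-miR-142-3p, mmu-miR-142-5p, mmu-miR-223-3p, mmu-miR-150-5p and mmu-miR-342-3p) were called higher in curcumin tumors, where 8.34% of all miRNAs and 20.2% of those detected on all arrays were. The sum of their normalized signals ranged from 599 to 1778 (median 838) against 313 to 526 (median 362) in controls. Of the fibroblast and smooth muscle list, mmu-miR-199a-3p and mmu-miR-199a-5p were called higher, 2 of 5, and the normalized sum ranged from 498 to 1094 against 161 to 392. The smooth muscle miRNAs mmu-miR-143-3p (0.20, SE 0.17, limma adjusted p = 0.687) and mmu-miR-145-5p (-0.05, SE 0.27, adjusted p = 1) were not called, and mmu-miR-214-3p missed the threshold (5.61, SE 1.75, adjusted p = 0.0501).

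In the epithelial list the call was mmu-miR-205-5p, 1 of 7, with a sum of 218 to 1739 against 3.28 to 165, while the 5 miRNAs of the miR-200 family on this list were called detected in no tumor. Without curcumin tumor 5 the calls in this list were 2, where 184 of all miRNAs were called in place of 171. Of the melanocytic list, mmu-miR-211-5p, which lies in an intron of Trpm1, was called lower and mmu-miR-204-5p was not, and the sum ranged from 4.19 to 624 in curcumin tumors against 308 to 847 in controls. As a check of the tissue, the scanner software called mmu-miR-211-5p present in 6 of 6 controls and in 4 of 7 curcumin tumors. In whole tumors, fewer cells of a type and less RNA per cell cannot be told apart.

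None of the erythroid (2 measured) and endothelial (2) lists was called in either direction. Of the 4 skeletal muscle miRNAs, mmu-miR-206-3p was called higher, but not without curcumin tumor 5. The sums were 45.4 to 277 against 39.9 to 714 for the erythroid list, 254 to 820 against 137 to 281 for the endothelial list and 29.1 to 962 against 23.3 to 607 for the skeletal muscle list.

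In the normalized values curcumin tumor 5, the dimmest array, had the lowest hematopoietic, fibroblast and epithelial sums of its group (599, 498 and 218). Its melanocytic, erythroid and skeletal muscle sums were the highest of the group (624, 277 and 962). Control 6 had the highest normalized mmu-miR-221-3p of the controls. It also had their highest hematopoietic, fibroblast, melanocytic and erythroid sums (526, 392, 847 and 714). Its endothelial and skeletal muscle sums were their highest as well (281 and 607), while its epithelial sum was not. Before normalization, where array brightness enters, the diets overlapped in the hematopoietic, fibroblast and epithelial sums and did not in the melanocytic sum. The part of these cell types in the difference of the 3p arms was not tested.

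**Figure D4:**
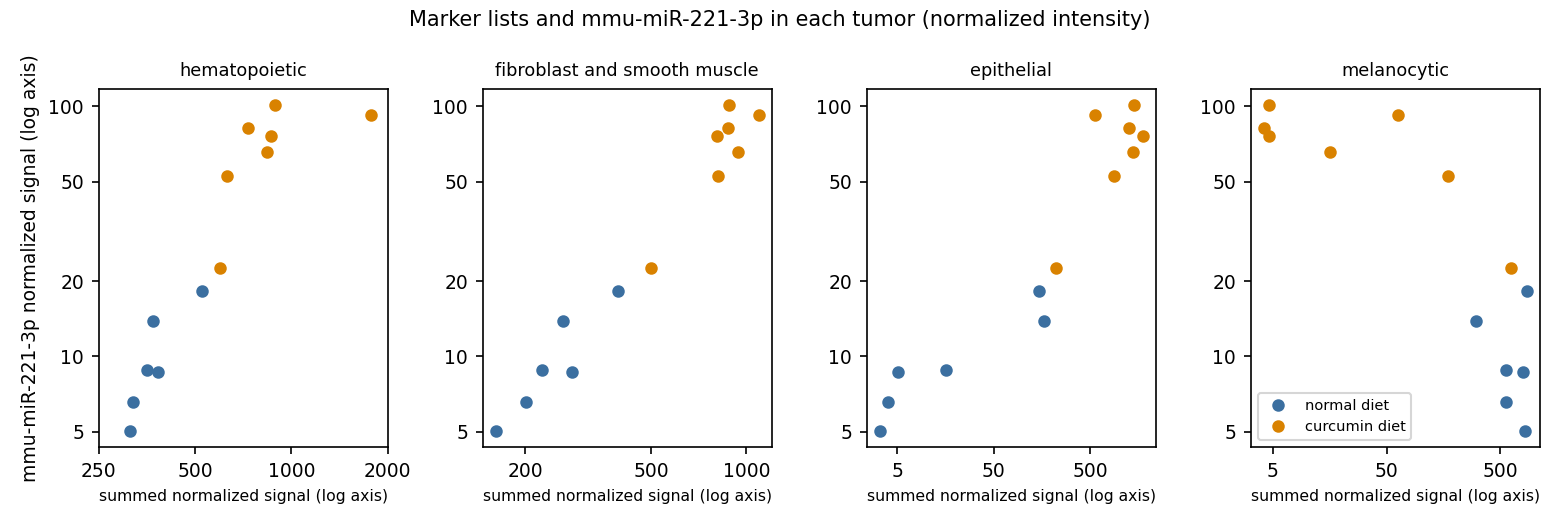
Quantile-normalized signal of mmu-miR-221-3p against the summed normalized signal of 4 marker lists in each tumor (intensity units, log axes), where both axes come from the same array. The curcumin tumors lay above the controls in the hematopoietic, fibroblast and epithelial sums, which reached 1778, 1094 and 1739, and the groups overlapped in the melanocytic sum.

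Other miRNAs linked to melanoma gave a setting for the pair. Of a list of 28, all on the array and 17 detected on every array, 8 were called higher and 4 lower, against 90 higher and 81 lower of all 1079. Their median log2 difference was 0.27, and that of all miRNAs was 0. Over the 243 miRNAs detected on all arrays the median was -0.0940, with 49 called higher and 52 lower. The members of the melanoma list called higher were mmu-miR-205-5p, mmu-miR-193b-3p, mmu-miR-10b-5p, mmu-miR-21-5p, mmu-miR-155-5p, mmu-miR-199a-5p, mmu-miR-183-5p and mmu-miR-146a-5p. The list members called lower were mmu-miR-211-5p, mmu-miR-532-5p, mmu-miR-193-3p and mmu-miR-30b-5p.

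The difference of mmu-miR-221-3p, 2.80, lay close to those of mmu-miR-21-5p (2.57, SE 0.54, limma adjusted p = 0.00939) and mmu-miR-199a-5p (2.55, SE 0.50, adjusted p = 0.00655). mmu-miR-148a-3p, which represses MITF, had a difference of 5.43 (SE 1.76) that missed the threshold (adjusted p = 0.0574), and mmu-miR-193b-3p, known for its target cyclin D1, was detected in 6 of 7 curcumin tumors and 0 of 6 controls. Without curcumin tumor 5, 11 of the list were called higher and 7 lower. The list shares mmu-miR-199a-5p, mmu-miR-214-3p, mmu-miR-205-5p, mmu-miR-200c-3p, mmu-miR-211-5p and mmu-miR-204-5p with the marker lists.

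**Figure D5:**
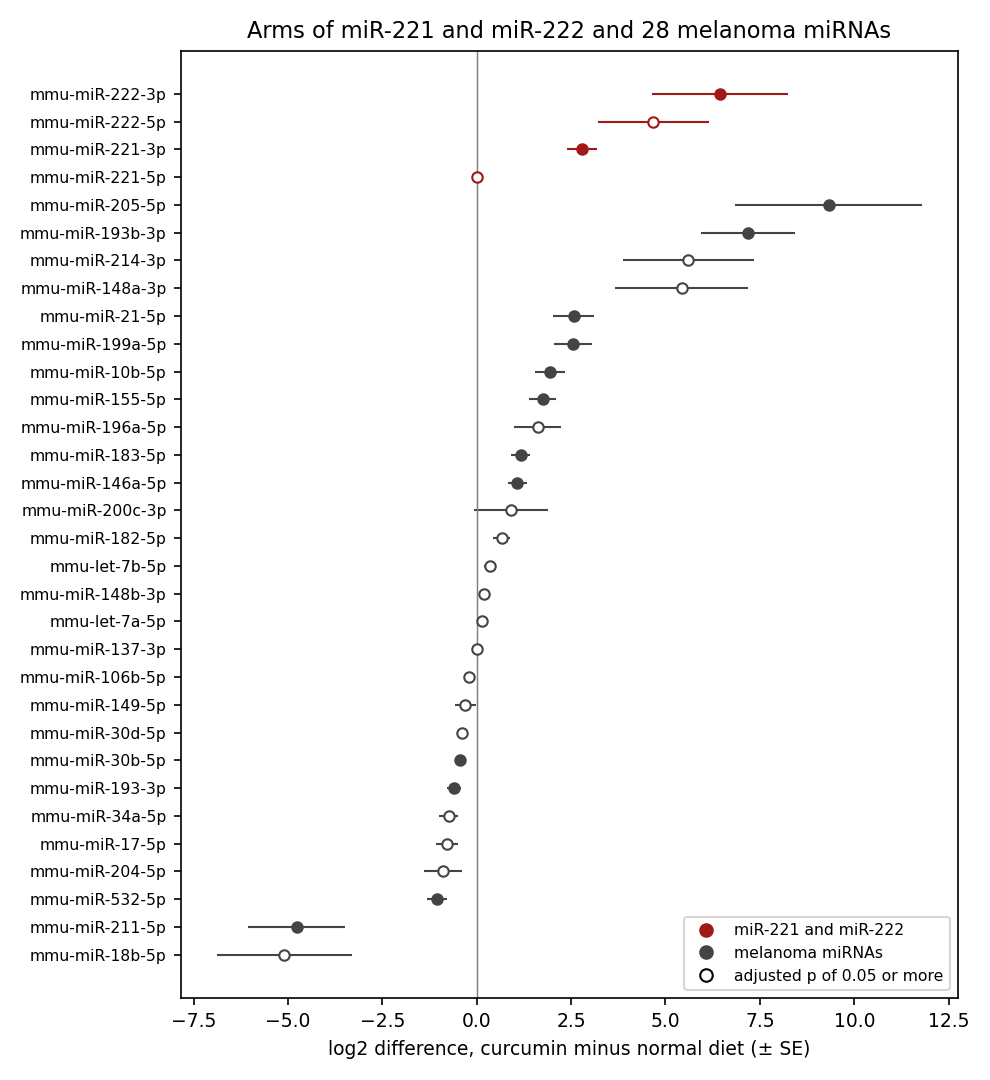
Log2 difference between the diets (curcumin minus normal diet, bars ± SE) of the 4 arms of miR-221 and miR-222, in red, and of 28 melanoma miRNAs, in grey, with open circles for an adjusted p of 0.05 or more. Filled points to the right are mmu-miR-221-3p (2.80), mmu-miR-222-3p (6.44) and 8 of the list, and 4 of the list are filled to the left of 0.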

How the data were processed

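RNA of 7 curcumin diet and 6 normal diet tumors was hybridized in 1 color. The authors obtained the intensity of every probe from Feature Extraction, version 10.10.1.1 per the file headers, after background subtraction and combination of replicate spots, and the software also flagged which miRNAs were detected. These detection flags (yes or no, the unit other) are as the authors deposited them. A table of quantile-normalized log2 values was deposited as well.

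Here the probe signals of each of 1079 miRNAs were summed, quantile normalized, floored at the smallest positive value (0.00765, for 7215 of 14027 values at or below 0) and put on the log2 scale. The diet difference of all miRNAs was fitted in limma 3.58.1 under R 4.3.3 (two-sided, no covariates, adjusted by Benjamini-Hochberg, threshold 0.05), beside exact permutation tests over the tumors. The limma step was tested on simulated, normally distributed values without a floor, so that test does not cover miRNAs with values at the floor. Marker lists were summed over the normalized signals, with values under 0 taken as 0. The deposited values and the alternatives in the closing section were fitted in the same way. The number of arrays limits the precision.

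The members, the marker lists and the melanoma list were chosen with earlier results of these data known. The miRNAs named are the members, those sharing a seed, the 5 most like each 3p arm, and list members that passed the threshold or that the text singles out after their values were seen (mmu-miR-148a-3p). mmu-miR-486-5p of the erythroid list was not found by that name. qRT-PCR, protein and tumor volume data were not analysed here.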

Additional observations from a re-analysis of the deposited data

Results flagged for a closer look

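Of 41 sets of values of a diet group that were examined for a sample far from the others, 6 held such a sample. About 1 in 20 would by chance if the values were normally distributed, which summed signals need not be. In the deposited log2 values of mmu-miR-221-3p, curcumin tumor 5 lay at 4.47 while the next lowest curcumin tumor lay at 5.83, a gap of 0.606 of the range of the group. Its array was the dimmest of the 13. Its summed normalized signal of the melanocytic list was 624, against 174 in the next highest curcumin tumor, and that of the melanoma list was 14851, against 22846 in the next lowest. Curcumin tumor 7 had a summed normalized signal of 1778 for the hematopoietic list and 820 for the endothelial miRNAs mmu-miR-126-3p and mmu-miR-126-5p, and the next highest values of its group were 888 and 353. In control 6 the hematopoietic sum was 526, and the next highest of its group was 384. These sets of values share tumors and are not independent.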

How the results depend on the processing

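The difference of mmu-miR-221-3p was positive under all 28 alternatives and missed the threshold in 2 of them, slide 1 alone (3.22, limma adjusted p = 0.0604) and slide 2 alone (2.55, adjusted p = 0.198). Its size was 0.920 with normexp and 4.83 with detected probes alone, against 2.80. That of mmu-miR-222-3p was positive under all 27. It missed the threshold with scaling to the 75th percentile of the miRNAs detected on all arrays (7.36) or of all miRNAs (7.72), without normalization (7.34), with detected probes alone (5.88), by the methods' test with unequal variances (6.44) and on slide 1 (8.61) or slide 2 (5.32) alone, and it ran from 5.23 to 7.26 with each array left out, and was 4.10 or 4.28 with a higher floor and 0.843 with normexp. mmu-miR-222-5p passed the threshold in the deposited values (0.91), with either percentile (7.44 and 7.70), with normexp (0.0697) and by the methods' test with equal variances (4.68), and ran from 3.98 to 5.46 with each array left out, passing without curcumin tumor 3 or 5. The cause of these changes was not tested.

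The same replicate numbers appear in both diets, but the deviations of same-numbered tumors correlated between -0.301 and 0.198 and 0 of 12 tumors correlated best with its own number. With the number as a replicate block, mmu-miR-222-3p missed the threshold (6.34, adjusted p = 0.134), and 67 miRNAs were called (45 higher) in place of 171 (90 higher). The block ended no other call of the arms.

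The number of miRNAs called was 105 (73 higher) with the 75th percentile of all, 49 (10 higher) without normalization, 102 (58 higher) with detected probes alone, 34 (14 higher) on slide 1, 3 (1 higher) on slide 2 and between 103 and 184 with each array left out. The ratio of the 3p arms lost its call with detected probes alone (1.05) and on slide 1 (5.39) and slide 2 (2.77), where slide 1 cannot give an exact permutation p under 0.1, and turned to -0.0773 with normexp. It ran from 2.53 to 4.28 with each array left out. The correlation of the 3p arms in controls lost its call with either percentile (0.85 and 0.82) and without the 2 farthest tumors (0.81), as in curcumin tumors (0.84), and with each array left out it ran from 0.78 to 0.91 in controls (lost without control 2, 3 or 4) and from 0.936 to 0.999 in curcumin tumors. In controls Spearman's rho of the 3p arms lost its call in the deposited values (0.83). The filter on detected miRNAs left out all arms except mmu-miR-221-3p, and the methods' test gave no value for mmu-miR-221-5p. The leave-one-out fits of the deposited values, the ratio in tumors with both arms detected, the correlations centred on the slide and the lists without curcumin tumor 5 were chosen after seeing the data. Signals close to the background limit what can be said of both 5p arms and of mmu-miR-222-3p in controls.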
